A study of Mus musculus with 15 samples.

Results

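The genes described here are 31 genes of cholesterol and fatty acid synthesis, taken from the deposited expression table by their symbols, out of 17271 genes in all. All 31 were present. They comprise 14 sterol enzymes (6 of the mevalonate part and 8 from squalene to cholesterol), 11 fatty acid genes (5 for acetyl-CoA, NADPH and fatty acid synthesis, 6 desaturases and elongases), 4 genes of sterol sensing and transport, and 2 genes of the liver X receptor (LXR) and cholesterol efflux branch. RNA-seq was done on 15 mammary tumours labelled p53 null from BALB/c mice, and each tumour belonged to 1 of 4 models, 2151R (n = 4), T11 (n = 1), 2225L (n = 2) or 2208L (n = 8). The genotype and strain are therefore shared by every group. Of the 2208L samples, 4 carry PBS in the title, 3 carry 3day nt and 1 carries ROSEN. In 2151R the titles of replicates 3 and 4 carry NT2 and NT, and those of replicates 1 and 2 carry codes whose meaning is not stated. In 2225L, replicate 1 is marked T-Vivo and replicate 2 ROSEN. Ages are not given, and nothing in the labels says whether samples came from separate animals, so p-values measure only the spread between samples, which may be technical.

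Cholesterol is made from acetyl-CoA through mevalonate, farnesyl diphosphate and squalene, and fatty acids are made from the same acetyl-CoA through malonyl-CoA. Transcription of both branches is driven by the sterol regulatory element binding proteins, of which the Srebf2 product mainly serves sterol enzymes and the Srebf1 product mainly fatty acid enzymes. When cells hold enough sterol, the Insig1 protein keeps these factors in the endoplasmic reticulum. Oxysterols then activate LXR (Nr1h3), whose known targets include the cholesterol exporter Abca1, Srebf1 and Scd1. In the mammary gland these pathways supply membrane lipid to growing cells and milk fat during lactation.

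Promoter sequence is given for 4 mevalonate enzymes that moved together between the subsets of 2208L, and for Acly, a fatty acid gene that moved the other way there. The stretches are the 150 bases before the RefSeq start of the gene, on its own strand (GRCm38.p6, the assembly called mm10 by the submitters). Capitals mark TCACCCCAC, a form of the sterol regulatory element, and CCAAT, the motif bound by NF-Y, on either strand (ATTGG is CCAAT on the other strand).
Hmgcs1, chr13:119690201-119690350, plus strand: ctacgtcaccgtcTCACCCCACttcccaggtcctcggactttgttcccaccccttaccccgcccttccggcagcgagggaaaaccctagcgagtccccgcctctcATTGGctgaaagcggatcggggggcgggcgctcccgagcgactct
Mvk, chr5:114444119-114444268, plus strand: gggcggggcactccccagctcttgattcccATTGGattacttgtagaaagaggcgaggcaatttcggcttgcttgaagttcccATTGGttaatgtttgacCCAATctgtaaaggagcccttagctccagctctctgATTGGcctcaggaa
Pmvk, chr3:89454391-89454540, plus strand: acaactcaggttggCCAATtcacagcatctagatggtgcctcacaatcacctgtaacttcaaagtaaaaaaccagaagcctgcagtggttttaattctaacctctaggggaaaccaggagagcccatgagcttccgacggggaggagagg
Mvd, chr8:122443423-122443572, minus strand: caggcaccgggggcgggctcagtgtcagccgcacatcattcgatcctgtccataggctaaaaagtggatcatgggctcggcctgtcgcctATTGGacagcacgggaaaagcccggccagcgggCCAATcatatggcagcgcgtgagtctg
Acly, chr11:100528001-100528150, minus strand: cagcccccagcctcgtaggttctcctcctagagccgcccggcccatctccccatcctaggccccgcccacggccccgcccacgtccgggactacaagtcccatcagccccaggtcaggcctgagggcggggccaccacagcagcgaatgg

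Mvk holds 4 CCAAT matches in its stretch, Mvd 2, Pmvk 1, and Hmgcs1 1 beside the only TCACCCCAC. Acly holds neither motif in the stretch shown, but it holds CCAAT in the longer window described next. RefSeq windows of 300 bases (250 before the start and 50 after) were at hand for 24 of the 31 members. CCAAT occurred on either strand in the windows of 19 of the 24 (79.2%), against 41.1% of all 27025 genes with a window, and at least 2 matches in 10 of the 24 (41.7%) against 13.3%. All 11 sterol enzymes with a window held CCAAT, and 5 of 8 fatty acid genes did (Acly, Acss2, Fasn, Me1 and Elovl5). The window of Acly held 1 match, so its lack of CCAAT above holds only for the shorter stretch. It does not set Acly apart from the mevalonate enzymes. TCACCCCAC was in 1 of the 24 windows, that of Hmgcs1, against 0.614% of all genes, and the wider form TCACNCCAC (which includes it) added no member. GGGCGG, the motif bound by Sp1, was in 18 of the 24 (75.0%), against 38.2% of all genes and 64.8% of the genes of the expression table with a window. A match is a run of letters and not a measured binding site.

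Each deposited value is on a log2 scale, set per gene against a level that the sources used here do not state. A gene can therefore be compared across samples, but levels cannot be ranked across genes, and depth is unknown because the table holds no counts. Sample medians over all genes ran from -0.29 to 0.10, the lowest in PBS replicate 5 of 2208L. Epithelial marker means were low in 2151R (-4.21 to -3.24) and T11 (-8.12) beside 2225L (2.27 to 2.42) and 2208L (0.059 to 1.21), and milk and alveolar marker means ran from 2.18 to 3.59 in 2208L and were -4.24 in T11. Skeletal muscle marker means stood apart in 2151R replicate 3 (7.09, against -2.74 to -2.52 in the other replicates) and in 3day nt replicates 6 and 8 (10.4 and 9.85, against 1.74 in replicate 7). In bulk tumour RNA, fewer cells of a type and less RNA per cell cannot be told apart. The library numbers of 2151R (CP-3499 to CP-3502), 2208L PBS (CP-2027 to CP-2032) and 2208L 3day nt (CP-2130 to CP-2133) lie in separate ranges, so library range and group cannot be told apart.

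The members differed widely in how far they varied. The range over the 15 samples was 0.87 log2 units for Elovl5 and 1.20 for Fasn at the low end, and 3.50 for Hsd17b7 and 3.69 for Acss2 at the high end. The median range of the 31 members was 2.07, and that of all genes was 2.37. Of the 465 member values 9 were exactly 0, and no member had the same value in more than 1 sample.

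**Figure D1:**
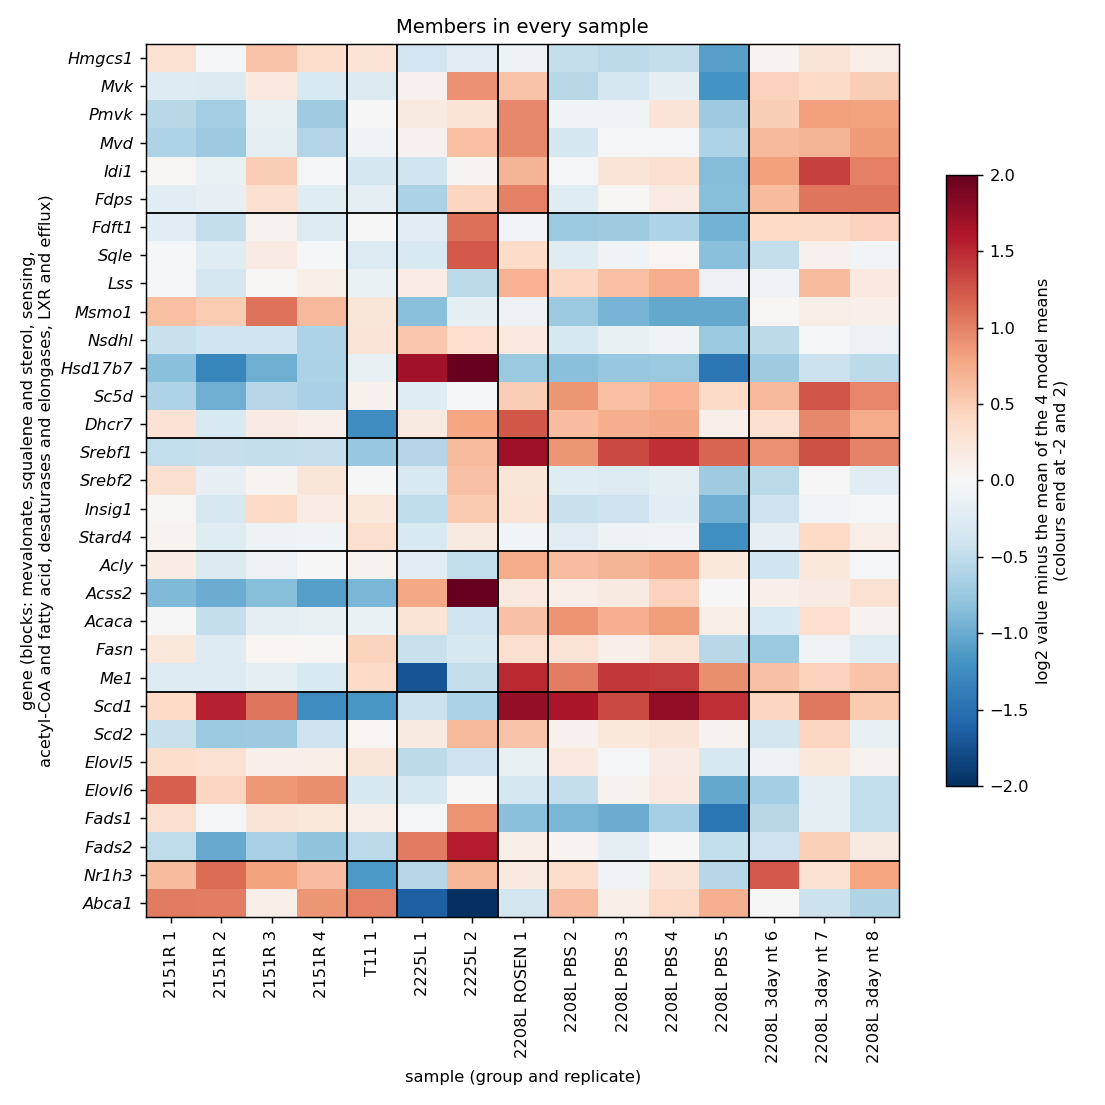
Each member (rows, in blocks by role) in each of the 15 samples (columns), as the log2 value minus the mean of the 4 model means, with colours ending at -2 and 2. Hsd17b7 and Acss2 are high in both 2225L samples, Srebf1 is high in all 8 samples of 2208L, and the upper rows are low in PBS replicate 5.

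Within 2208L, 8 of 14 sterol enzymes were lower and 3 of 11 fatty acid genes were higher in the PBS than in the 3day nt samples. All 6 mevalonate enzymes were lower in PBS by 0.79 to 1.15 log2 units (called at a Benjamini-Hochberg adjusted p under 0.05 with limma), against 16.5% of all genes called lower. Of the 31 members 8 were called lower and 4 higher (17.4% of all genes were called higher), together 38.7% against 34.0% of all genes, so the overall share lies near the background. With limma none of the 14 sterol enzymes was called higher (0 at an unadjusted p under 0.05) and none of the 11 fatty acid genes lower (1 at an unadjusted p under 0.05, Fads1). The median difference was -0.83 over the sterol enzymes and 0.18 over the fatty acid genes, beside -0.047 over all genes.

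Hmgcs1, which makes the HMG-CoA used for mevalonate, read -0.43, -0.48, -0.43 and -1.05 in PBS replicates 2 to 5 and 0.10, 0.31 and 0.18 in 3day nt replicates 6 to 8. The groups did not overlap, and the difference was -0.79 (SE 0.18, adjusted p 0.0188). Idi1, which isomerises isopentenyl diphosphate, read 0.085, 0.39, 0.45 and -0.73 in PBS and 0.96, 1.49 and 1.14 in 3day nt (difference -1.15, SE 0.31, adjusted p 0.0316). Fdps, which makes farnesyl diphosphate, read -0.28, -0.007, 0.13 and -0.89 in PBS and 0.59, 1.04 and 1.03 in 3day nt (difference -1.15, SE 0.27, adjusted p 0.0195). In all 3 genes every PBS sample lay below every 3day nt sample, and PBS replicate 5 was the lowest. The kinases Mvk (-1.02, SE 0.24) and Pmvk (-0.86, SE 0.24) and the decarboxylase Mvd (-0.97, SE 0.18) were also lower in PBS without overlap. In all, 10 of the 31 members were lower and 3 higher without overlap, where 23.8% of all genes were lower and 44.8% differed in either direction.

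Past farnesyl diphosphate, 2 of 8 enzymes were called. Fdft1, the squalene synthase, read -0.56, -0.53, -0.43 and -0.76 in PBS and 0.59, 0.57 and 0.65 in 3day nt. The replicates were tight and the groups far apart, with a difference of -1.17 (SE 0.11, adjusted p 0.00254), a 2.26-fold lower level in PBS. Msmo1, which removes methyl groups at carbon 4 of the sterol ring, read -0.62, -0.81, -0.90 and -0.91 in PBS and 0.14, 0.24 and 0.23 in 3day nt (difference -1.01, SE 0.11, adjusted p 0.00338). Sqle, the squalene epoxidase that follows Fdft1, read -0.23, -0.050, 0.053 and -0.82 in PBS and -0.46, 0.11 and -0.043 in 3day nt. Its groups overlapped, and its difference of -0.13 (SE 0.25, adjusted p 0.702) did not pass. Lss, Nsdhl, Hsd17b7, Sc5d and Dhcr7 had differences from -0.40 to 0.15 that did not pass.

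The genes of sterol sensing and transport were not called (0 of 4 with limma, and 0 at an unadjusted p under 0.05). Srebf2 read -0.29, -0.32, -0.22 and -0.76 in PBS and -0.58, -0.037 and -0.27 in 3day nt (difference -0.10, SE 0.19). Insig1 read -0.67, -0.64, -0.45 and -1.18 in PBS and -0.64, -0.27 and -0.27 in 3day nt (difference -0.34, SE 0.20). Srebf1 read 1.11, 1.56, 1.70 and 1.39 in PBS and 1.15, 1.51 and 1.22 in 3day nt (difference 0.15, SE 0.17). All 3 overlapped between the groups, with adjusted p of 0.698, 0.222 and 0.535. Stard4, a cytosolic sterol carrier, had a difference of -0.52 (SE 0.32) and was not called either.

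Among the fatty acid genes, 3 of 11 were called (27.3%, beside 34.0% of all genes in either direction). All 3 were higher in PBS, where 17.4% of all genes were called higher. Without 3day nt replicate 6, or without replicate 8, 0 of the 11 were called with limma. Scd1, a stearoyl-CoA desaturase, read 1.80, 1.49, 1.94 and 1.63 in PBS and 0.60, 1.23 and 0.70 in 3day nt (difference 0.87, SE 0.19, adjusted p 0.0168). Me1, the cytosolic malic enzyme that yields NADPH, read 1.06, 1.44, 1.43 and 0.96 in PBS and 0.62, 0.49 and 0.60 in 3day nt (difference 0.66, SE 0.16, adjusted p 0.0214). Neither gene overlapped between the groups. Acly, which splits citrate into acetyl-CoA, was higher by 0.64 (SE 0.20, adjusted p 0.0472), but its ranges touched, from 0.14 to 0.68 in PBS and from -0.47 to 0.15 in 3day nt. Fasn, the fatty acid synthase, read 0.15, -0.023, 0.16 and -0.68 in PBS and -0.87, -0.19 and -0.36 in 3day nt, and its difference of 0.37 (SE 0.26, adjusted p 0.299) did not pass. Scd2, a second stearoyl-CoA desaturase, read -0.059, 0.061, 0.11 and -0.068 in PBS and -0.51, 0.29 and -0.30 in 3day nt (difference 0.18, SE 0.20, adjusted p 0.491). Acaca (0.61, adjusted p 0.0899) and Fads1 (-0.59, adjusted p 0.0602) missed the threshold. Acss2, Elovl5, Elovl6 and Fads2 had differences from -0.24 to 0.15 that did not pass.

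Abca1 read 0.61, 0.10, 0.38 and 0.70 in PBS and 0.00, -0.44 and -0.61 in 3day nt, without overlap (difference 0.80, SE 0.21, adjusted p 0.0276). Nr1h3 read 0.19, -0.24, 0.10 and -0.73 in PBS and 1.06, 0.13 and 0.62 in 3day nt. Its sign was the opposite of that of Abca1, and its difference of -0.78 (SE 0.30, adjusted p 0.0853) did not pass.

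**Figure D2:**
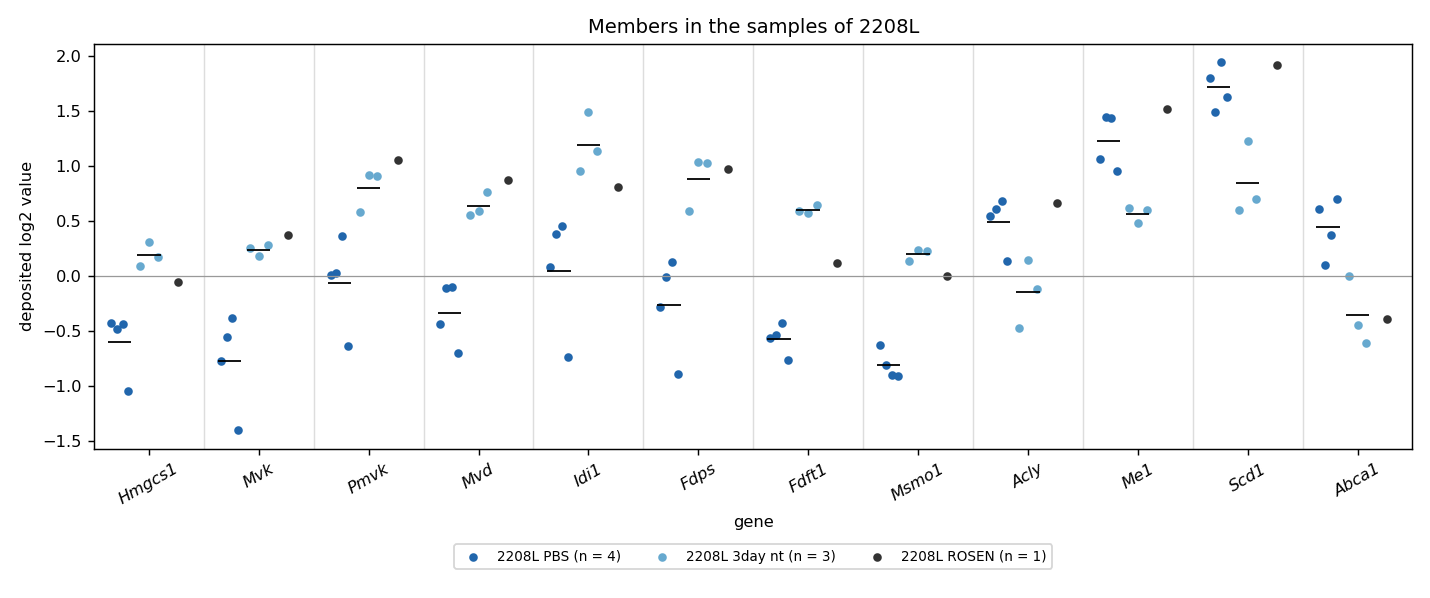
Deposited log2 values of the 12 called members in the 8 samples of 2208L, with points for samples and bars for group means. For the 8 genes on the left every 3day nt point lies above every PBS point, and for Me1, Scd1 and Abca1 every PBS point lies above every 3day nt point.

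Marker lists of other cell types were read in the same groups, where 16.5% of all genes were called lower in PBS. Of 13 adipocyte markers 12 read lower in PBS and 2 were called, with marker means from -2.40 to 2.17 in PBS and 1.76 to 2.60 in 3day nt. All 10 skeletal muscle markers read lower in PBS and 1 was called, with means from -3.12 to 3.12 in PBS and 1.74 to 10.4 in 3day nt. T cell markers were called lower for 2 of 6, with means from -2.47 to 0.50 in PBS and 0.11 to 0.78 in 3day nt. Sebaceous gland and skin markers were called lower in PBS for 3 of 6, with means from -0.001 to 0.31 in PBS, 0.57 to 1.08 in 3day nt and 0.96 in the ROSEN sample. Epithelial markers were called lower for 1 of 8, with means from 0.059 to 0.40 in PBS, 0.46 to 1.21 in 3day nt and 0.73 in the ROSEN sample. In the sebaceous and epithelial lists the PBS means lay below all others of 2208L, as the mevalonate enzymes did, and their part in the member differences was not tested. Of macrophage markers 1 of 10 was called higher and 1 lower, of milk and alveolar markers 1 of 6 higher, and of 7 fibroblast, 5 endothelial and 10 proliferation markers 0 were called with limma (0, 0 and 1 at an unadjusted p under 0.05). Whether any marker is absent cannot be read from values centred per gene. With the adipocyte mean as a covariate, with the muscle mean as a covariate, or without 3day nt replicates 6 and 8, limma called 0 of the 31 members, and 5, 8 and 8 members had an unadjusted p under 0.05. Over all genes these fits called 76 higher and 30 lower, 86 and 38, and 76 and 22, where 3007 and 2857 were called before, so calls were lost across the whole table. The median difference over the sterol enzymes was -0.56, -0.83 and -0.92 in the 3 fits, beside -0.83 before, and over the fatty acid genes 0.54, -0.026 and 0.025, beside 0.18. The 12 called genes kept their direction in all 3 fits, in which their adjusted p lay between 0.0618 and 0.512.

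The ROSEN sample entered neither group of this comparison. It had an adipocyte mean of -0.59 and the lowest muscle mean of the 15 samples, -4.03. It lay above the PBS range in 12 of 14 sterol enzymes (29.8% of all genes), among them all 6 mevalonate enzymes. The same held in 4 of 11 fatty acid genes. Hmgcs1 read -0.057, Idi1 0.81, Fdps 0.98 and Msmo1 0.00 in it. This is 1 library with the prefix ROSEN, where the other 2208L libraries carry CP, so prefix and sample cannot be told apart. The part of muscle or adipocyte RNA in these values was not tested.

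The number of calls fell when most single libraries were left out, among the members and over all genes. Without 3day nt replicate 8, 3 of the 12 calls remained (Mvd, Fdft1 and Msmo1) and 1362 genes were called higher and 1017 lower over the whole table. Without replicate 6, 5 remained (1723 and 1227 over all genes), and without PBS replicate 2, 6 remained (2042 and 1844). Fdft1, Msmo1 and Mvd were called in every fit that left out 1 library. PBS replicate 5 was the lowest of the 4 PBS samples in 28 of 31 members and in 65.2% of all genes. Without replicate 5 all 12 calls remained and Acaca was called too, with 3988 genes higher and 2812 lower over the whole table. Without 3day nt replicate 7, 8 of the 12 calls remained, while 2854 genes were called higher and 3111 lower. The reported fit called 3007 and 2857.

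Between the models, the called members were spread over both branches and both directions. The comparisons of 2151R and of 2225L with 2208L share the 2208L samples. In 2151R against 2208L, 4 members were called higher and 10 lower, together 45.2% of the members beside 48.8% of all genes (26.1% higher and 22.7% lower). In 2225L against 2208L, 5 were called higher and 6 lower, together 35.5% beside 32.9% of all genes (15.6% and 17.3%). In 2225L against 2151R, 5 were called higher and 4 lower, together 29.0% beside 48.6% of all genes (22.8% and 25.8%). The first and second shares lie near the background and the third below it. Without overlap between the groups, 3 members were higher and 6 lower in the first comparison (20.6% and 18.2% of all genes), 5 and 6 in the second (15.7% and 16.0%) and 8 and 7 in the third (28.9% and 33.4%). Cell type markers differed in the first comparison too. Of 8 epithelial markers 7 were called lower and 1 higher, and of 6 milk and alveolar markers 4 lower and 1 higher. Called higher were 8 of 10 proliferation, 7 of 10 macrophage and 5 of 5 endothelial markers. Of 13 adipocyte markers 4 were called higher and 1 lower, and of 10 skeletal muscle markers 0 were called with limma. Their part in the member differences was not tested.

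Of the 14 sterol enzymes, 1 was called higher and 4 lower in 2151R against 2208L, 2 and 1 in 2225L against 2208L, and 2 and 1 in 2225L against 2151R. Their median differences were -0.30, -0.039 and 0.53, beside 0.10, -0.044 and -0.10 over all genes. Of the 11 fatty acid genes, 2 were called higher and 5 lower in the first comparison, 3 and 3 in the second, and 3 and 2 in the third. Their median differences were -0.61, -0.30 and -0.29.

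**Figure D3:**
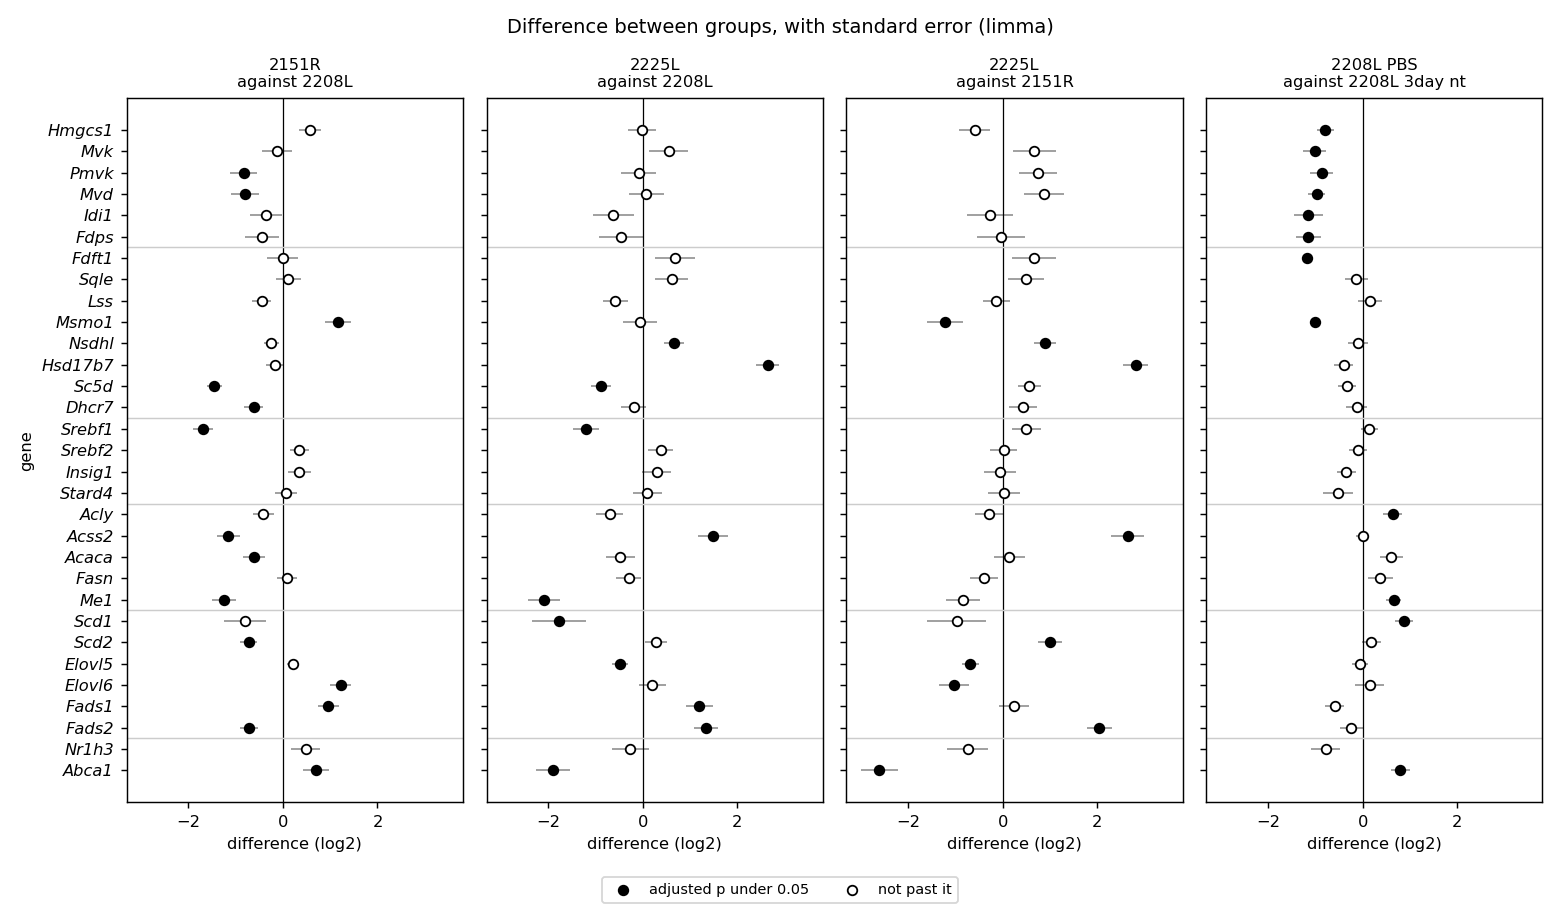
Difference of each member in log2 units in the 4 comparisons, with standard errors from limma, filled where the adjusted p is under 0.05 and open where it is not. The 6 mevalonate enzymes at the top are filled and below 0 in the PBS panel, where they lie between -0.79 and -1.15, and Hsd17b7 is the point farthest to the right in both 2225L panels, at 2.64 and 2.81.

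Of the 6 mevalonate enzymes, 2 were called in 2151R against 2208L (33.3%, beside 48.8% of all genes in either direction and 22.7% lower), Pmvk (-0.83, SE 0.28, adjusted p 0.0274) and Mvd (-0.80, SE 0.29, adjusted p 0.0379), and both calls were lost without any of 2151R replicates 1, 2 and 4, that of Mvd also without any of 2208L replicates 1, 6, 7 and 8. In the reported fit none of the 6 was called in either comparison of 2225L with limma, and 0 of 6 had an unadjusted p under 0.05 in each. Hmgcs1 read 0.36, 0.00, 0.61 and 0.40 in 2151R, 0.32 in T11, -0.34 and -0.16 in 2225L, and a median of -0.24 in 2208L (lowest -1.05, highest 0.31). It was higher in 2151R than in 2225L without overlap, but its difference of -0.59 (SE 0.33, adjusted p 0.152) did not pass. Idi1 read 0.15, -0.008, 0.63 and 0.11 in 2151R, -0.22 in T11, -0.27 and 0.18 in 2225L, and a median of 0.63 in 2208L (-0.73 to 1.49). Fdps read -0.26, -0.21, 0.28 and -0.28 in 2151R, -0.22 in T11, -0.67 and 0.39 in 2225L, and a median of 0.36 in 2208L (-0.89 to 1.04). For both genes 2151R, 2225L and 2208L overlapped, and the spread within 2208L was wider than the distance between model means. The calls depended on which 2208L samples were used. Against the 3day nt samples alone, 2151R was also called lower in Idi1 and Fdps, while Dhcr7, Acaca, Scd2 and Fads1 were no longer called. Against the PBS samples alone, 2151R was called higher in Hmgcs1 and lower in Acly, while Pmvk, Mvd, Dhcr7 and Abca1 were no longer called. Likewise 2225L was called lower in Idi1 against 3day nt alone, while Scd1 and Fads1 were no longer called. Against PBS alone, 2225L was called higher in Mvk and Fdft1 and lower in Acly, while Elovl5 was no longer called. With the adipocyte mean as a covariate, Mvk, Pmvk and Mvd were called higher in 2225L than in 2151R.

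Hsd17b7, which reduces the keto group left at carbon 3 during demethylation (chromosome 1, 169949535 to 169969242), was the sterol enzyme with the largest difference in both comparisons of 2225L. It read 2.12 and 2.49 in 2225L, -0.40, -0.87, -0.54 and -0.20 in 2151R, 0.29 in T11, and a median of -0.31 in 2208L (-1.01 to 0.014). Both 2225L samples lay above every other sample. The difference was 2.64 against 2208L (SE 0.24, adjusted p 4.98e-06), a 6.24-fold higher level, and 2.81 against 2151R (SE 0.27, adjusted p 2.07e-06). Nsdhl, which acts in the same demethylation step, was higher in 2225L too, by 0.65 against 2208L (SE 0.21, adjusted p 0.0302) and 0.90 against 2151R (SE 0.23, adjusted p 0.00624). For Nsdhl too, both 2225L samples lay above every other sample. Its call against 2208L was lost without either 2225L sample.

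Msmo1 and Sc5d set 2151R apart in opposite directions. Msmo1 read 0.72, 0.62, 1.20 and 0.76 in 2151R, 0.36 in T11, -0.72 and -0.065 in 2225L, and a median of -0.31 in 2208L (-0.91 to 0.24). All 2151R values were above all others, with a difference of 1.16 from 2208L (SE 0.27, adjusted p 0.00335) and of -1.22 between 2225L and 2151R (SE 0.39, adjusted p 0.0194). The second call was lost without 2225L replicate 1, with quantile normalization, with sample weights or with the adipocyte mean as a covariate. Sc5d, the lathosterol desaturase, read -0.42, -0.79, -0.38 and -0.46 in 2151R, 0.27 in T11, -0.052 and 0.16 in 2225L, and a median of 0.87 in 2208L (0.57 to 1.45). It was lower in 2151R than in 2208L by 1.44 log2 units (difference -1.44, SE 0.17, adjusted p 9.87e-06) and lower in 2225L (-0.88, SE 0.21, adjusted p 0.00707, lost without 2225L replicate 1), and the 8 samples of 2208L were all above the rest. Between 2225L and 2151R, Sc5d did not overlap, but its difference of 0.57 (SE 0.23, adjusted p 0.0613 with limma) did not pass.

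Fdft1 read -0.045, -0.30, 0.25 and -0.087 in 2151R, 0.19 in T11, -0.035 and 1.29 in 2225L, and a median of -0.15 in 2208L (-0.76 to 0.65), and it was not called between models. Sqle read 0.00, -0.23, 0.18 and -0.012 in 2151R, -0.25 in T11, -0.29 and 1.25 in 2225L, and a median of -0.046 in 2208L (-0.82 to 0.39). Both genes were highest in 2225L replicate 2 and below 0 in 2225L replicate 1. Dhcr7, the last enzyme of the cholesterol route, was lower in 2151R than in 2208L (-0.62, SE 0.21, adjusted p 0.0257), a call lost without 2151R replicate 2 or 4. Lss, the lanosterol synthase, was not called in any comparison as deposited, but passed as lower in 2151R than in 2208L once each sample was centred on its median or quantile normalized, settings under which Abca1 no longer passed there.

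Srebf1 (chromosome 11, 60199084 to 60224186) was the member of sterol sensing and transport that was called between models. It read -0.26, -0.23, -0.25 and -0.23 in 2151R, -0.53 in T11, -0.35 and 0.87 in 2225L, and a median of 1.45 in 2208L (1.11 to 1.93). Every 2208L sample lay above every other tumour. The difference from 2208L was -1.69 in 2151R (SE 0.21, adjusted p 2.25e-05), a 3.23-fold lower level, and -1.19 in 2225L (SE 0.27, adjusted p 0.00503), where the call was lost without replicate 1. Srebf2 read 0.28, -0.22, 0.007 and 0.20 in 2151R, -0.058 in T11, -0.36 and 0.54 in 2225L, and a median of -0.28 in 2208L (-0.76 to 0.19). Insig1 read -0.20, -0.54, 0.17 and -0.080 in 2151R, 0.003 in T11, -0.73 and 0.30 in 2225L, and a median of -0.54 in 2208L (-1.18 to 0.047). Srebf2, Insig1 and Stard4 overlapped between 2151R, 2225L and 2208L and were not called between them.

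Acss2 and Me1, which supply acetyl-CoA and NADPH, were called between models, and the synthase Fasn was not. Acss2, which makes acetyl-CoA from acetate (chromosome 2, 155518043 to 155562743), read -0.86, -0.99, -0.84 and -1.10 in 2151R, -0.90 in T11, 0.79 and 2.60 in 2225L, and a median of 0.19 in 2208L (0.00 to 0.47). The 3 replicated models did not overlap, in the order 2225L, 2208L, 2151R. The differences were -1.15 for 2151R against 2208L (SE 0.24, adjusted p 0.0016), 1.49 for 2225L against 2208L (SE 0.32, adjusted p 0.00289) and 2.64 for 2225L against 2151R (SE 0.35, adjusted p 3.82e-05). The 2225L samples were far apart from each other, and the difference from 2208L was 0.59 with replicate 1 alone and 2.39 with replicate 2 alone. The SE and p-values rest on 1 spread per gene shared by the models, while the SD of Acss2 was 1.28 in 2225L, 0.14 in 2208L and 0.12 in 2151R. Me1 read -0.25, -0.24, -0.15 and -0.28 in 2151R, 0.42 in T11, -1.70 and -0.45 in 2225L, and a median of 1.01 in 2208L (0.49 to 1.52). All 8 samples of 2208L were above all others, with differences of -1.24 for 2151R (SE 0.26, adjusted p 0.00128) and -2.09 for 2225L (SE 0.33, adjusted p 0.00039).

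Fasn read 0.10, -0.39, -0.076 and -0.10 in 2151R, 0.33 in T11, -0.56 and -0.44 in 2225L, and a median of -0.11 in 2208L (-0.87 to 0.21). It was highest in T11 and was not called in any comparison. Acly was not called between models in the reported fit. It passed as lower than 2208L in both 2151R and 2225L against the PBS samples alone, with the muscle mean as a covariate, or without 2208L replicate 6. Acaca, the acetyl-CoA carboxylase that forms malonyl-CoA, was lower in 2151R than in 2208L (-0.61, SE 0.23, adjusted p 0.0423), and that call was lost in 9 of the fits that left out 1 sample.

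**Figure D4:**
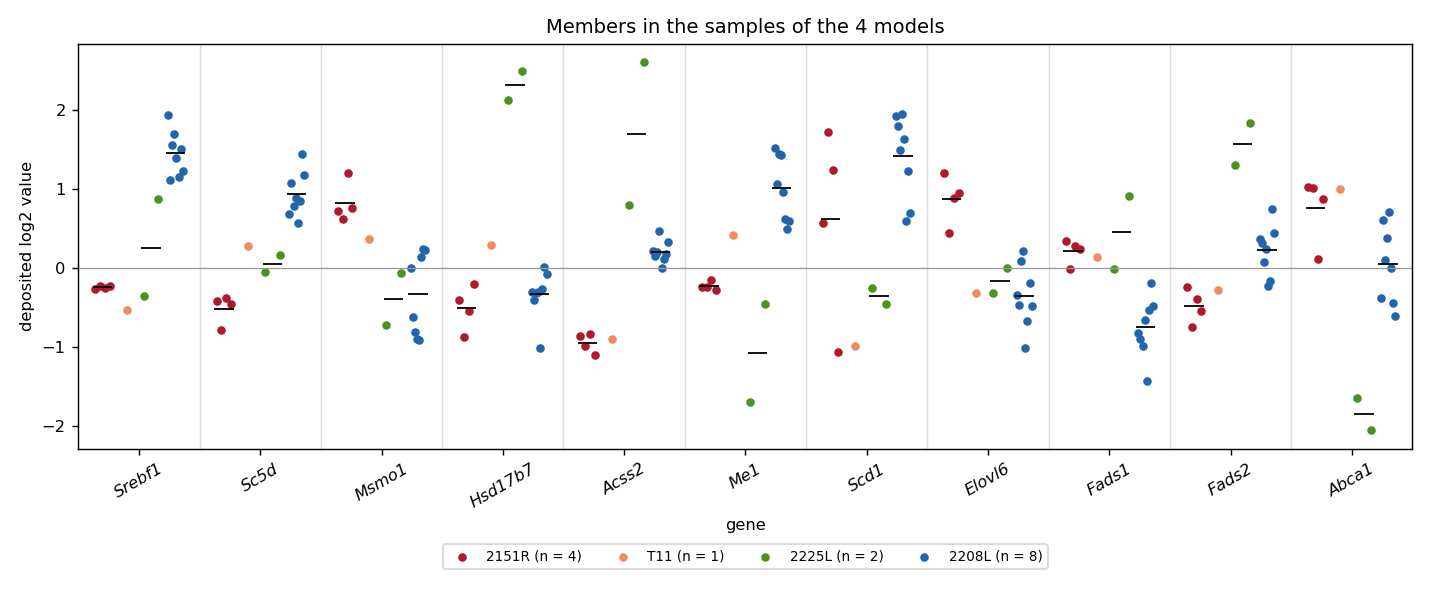
Deposited log2 values of 11 members in the 15 samples by model, with points for samples and bars for model means where there are at least 2 samples. Hsd17b7, Acss2 and Fads2 are highest in 2225L, Srebf1, Sc5d and Me1 are highest in 2208L, and Abca1 in 2225L lies at -1.65 and -2.05, below every other sample.

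Desaturases and elongases were mixed. Elovl6, which extends palmitate, read 1.20, 0.44, 0.88 and 0.95 in 2151R, -0.31 in T11, -0.32 and 0.00 in 2225L, and a median of -0.41 in 2208L (-1.01 to 0.21). Every 2151R sample lay above all others, with a difference of 1.22 from 2208L (SE 0.22, adjusted p 0.000496) and of -1.03 between 2225L and 2151R (SE 0.31, adjusted p 0.0163; lost without 2225L replicate 1). Elovl5, which extends polyunsaturated fatty acids, was lower in 2225L, by 0.48 log2 units against 2208L (difference -0.48, SE 0.17, adjusted p 0.0414) and 0.69 against 2151R (difference -0.69, SE 0.18, adjusted p 0.00699). The first of these calls was lost in 7 fits that left out 1 sample.

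Fads1 and Fads2 encode the delta-5 and delta-6 desaturases of polyunsaturated fatty acids and are neighbours on chromosome 19 (10182877 to 10196874 and 10062765 to 10101503). Fads1 read 0.34, -0.013, 0.28 and 0.25 in 2151R, 0.14 in T11, -0.013 and 0.91 in 2225L, and a median of -0.74 in 2208L (-1.43 to -0.19). Fads2 read -0.25, -0.74, -0.40 and -0.54 in 2151R, -0.27 in T11, 1.30 and 1.83 in 2225L, and a median of 0.28 in 2208L (-0.23 to 0.74). Against 2208L, 2151R was thus higher in Fads1 (0.96, SE 0.22, adjusted p 0.00313) and lower in Fads2 (-0.71, SE 0.19, adjusted p 0.00778), while 2225L was higher in both (1.20, SE 0.29, adjusted p 0.00664 and 1.34, SE 0.25, adjusted p 0.00114). The Fads1 call in 2225L was lost without replicate 2, and its calls in both models were lost against the 3day nt samples alone. The Fads2 call in 2151R was lost with only the samples titled NT, nt or PBS.

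Scd1 and Scd2 lie in a cluster on chromosome 19 with the copies Scd3 and Scd4, and how reads shared by near-identical copies were counted is not stated, so their values are uncertain in that respect. Scd1 read 0.57, 1.72, 1.24 and -1.06 in 2151R, -0.99 in T11, -0.25 and -0.46 in 2225L, and a median of 1.56 in 2208L (0.60 to 1.94). It varied most within 2151R, where the adipocyte marker means were 2.11, 3.85, 3.75 and 1.28 in replicates 1 to 4, lowest in the replicate with the lowest Scd1. In 2208L, Scd1 was higher in PBS (1.49 to 1.94) than in 3day nt (0.60 to 1.23), with adipocyte means of -2.40 to 2.17 and 1.76 to 2.60. Within PBS the samples ranked alike in both, and within 3day nt they ranked in reverse. In 2225L replicates 1 and 2 the adipocyte means were -1.87 and 2.02, with Scd1 at -0.25 and -0.46. Whether adipocyte RNA has a part in Scd1 was not tested. Scd1 was lower in 2225L than in 2208L (-1.77, SE 0.56, adjusted p 0.0281), a call lost without either 2225L sample and against the 3day nt samples alone, and 2151R did not pass (-0.80, SE 0.44, adjusted p 0.148). Scd2 read -0.59, -0.88, -0.87 and -0.56 in 2151R, -0.11 in T11, 0.030 and 0.50 in 2225L, and a median of 0.0008 in 2208L (-0.51 to 0.42). It was lower in 2151R than in 2208L (-0.72, SE 0.18, adjusted p 0.00456; lost against the 3day nt samples alone) without overlap, and higher in 2225L than in 2151R (0.99, SE 0.25, adjusted p 0.00556; lost without 2225L replicate 2).

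Abca1 (chromosome 4, 53030789 to 53159988) was the lowest in 2225L. It read 1.03, 1.01, 0.11 and 0.88 in 2151R, 1.003 in T11, -1.65 and -2.05 in 2225L, and a median of 0.051 in 2208L (-0.61 to 0.70). The 2225L samples lay below all others, by 1.89 log2 units against 2208L (difference -1.89, SE 0.35, adjusted p 0.0013) and 2.60 against 2151R (difference -2.60, SE 0.39, adjusted p 0.000119). The higher level in 2151R than in 2208L (0.71, SE 0.27, adjusted p 0.0466) was lost in 8 fits that left out 1 sample. Nr1h3, which encodes LXR alpha, read 0.46, 0.94, 0.64 and 0.45 in 2151R, -1.32 in T11, -0.73 and 0.50 in 2225L, and a median of 0.11 in 2208L (-0.73 to 1.06), and was not called between models. Macrophages express both genes. Macrophage marker means were -1.63 and -1.03 in 2225L, 0.36 to 0.74 in 2151R and -1.31 to 0.30 in 2208L. Of these markers 9 of 10 were called lower in 2225L than in 2151R (25.8% of all genes) and 5 of 10 lower than in 2208L (17.3% of all genes). Their part in the difference of Abca1 was not tested.

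Other marker lists were read in 2225L as well. Markers of sebaceous gland and skin, a gland that makes lipid, had means of 1.14 and 2.28 in 2225L, -1.33 to -0.84 in 2151R and -0.001 to 1.08 in 2208L. Of these markers 4 of 6 were called higher than in 2151R (22.8% of all genes) and 2 of 6 higher than in 2208L (15.6% of all genes). Epithelial markers were called higher for 8 of 8 against 2151R and for 2 of 8 against 2208L. Adipocyte marker means were -1.87 and 2.02 in the 2 samples of 2225L. With limma 0 of 13 adipocyte markers were called against 2208L, and 1 was called higher and 2 lower against 2151R. Replicate 2 read above replicate 1 in 25 of 31 members, beside 53.5% of all genes. The library of replicate 1 carries the prefix CP and that of replicate 2 ROSEN, so prefix and replicate cannot be told apart. The part of these markers in the member differences was not tested.

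Samples within 2151R also ranked alike across the sterol genes. Replicate 3, which had the high muscle markers, was the highest of the 4 in 6 of 6 mevalonate enzymes and in 11 of 14 sterol enzymes, beside 20.4% of all genes. Replicate 2 was the lowest in 10 of 14 sterol enzymes and 7 of 11 fatty acid genes, beside 37.0% of all genes.

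Sterol against fatty acid genes were compared in each sample by the median over each list of the value minus the mean of the 4 model means. For the sterol enzymes this was -0.17 ± 0.19 (SD, n = 4) in 2151R, -0.10 in T11, -0.066 and 0.38 in 2225L and 0.087 ± 0.48 (SD, n = 8) in 2208L. For the fatty acid genes it was -0.10 ± 0.18 (SD, n = 4) in 2151R, 0.035 in T11, -0.22 and -0.32 in 2225L and 0.11 ± 0.22 (SD, n = 8) in 2208L. The ranges of 2151R, 2225L and 2208L overlapped for both lists. Within 2208L the sterol median was -0.28, -0.069, 0.008 and -0.85 in PBS, 0.36, 0.51 and 0.48 in 3day nt, and 0.53 in the ROSEN sample. The fatty acid median was 0.20, 0.18, 0.28 and -0.013 in PBS, -0.36, 0.22 and 0.065 in 3day nt, and 0.33 in the ROSEN sample. The sterol medians of PBS lay below those of 3day nt without overlap, while the fatty acid medians overlapped. The sterol median minus the fatty acid median was -0.83 to -0.25 in PBS and 0.29 to 0.73 in 3day nt. These medians are a description with no test, since the lists were chosen with results known.

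**Figure D5:**
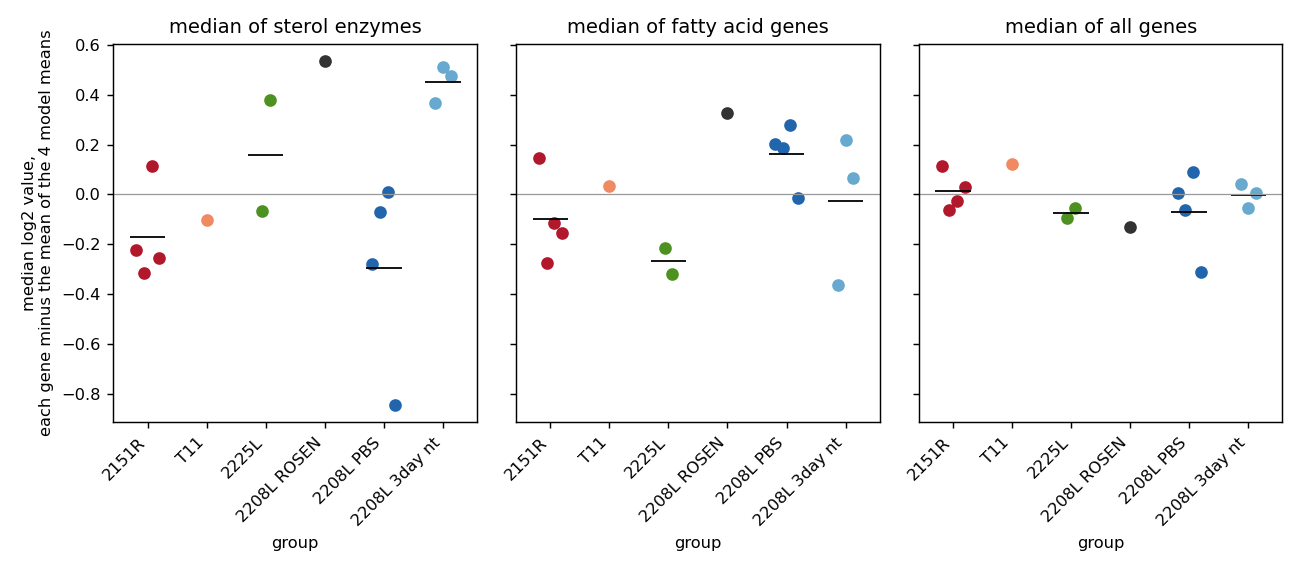
Median over the sterol enzymes, over the fatty acid genes and over all genes in each sample, in log2 units after subtracting the mean of the 4 model means from each gene, with points for samples and bars for group means. The sterol medians of PBS (-0.85 to 0.008) lie below those of 3day nt (0.36 to 0.51), while in the fatty acid panel the same groups overlap.

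T11, with 1 sample, was set beside the ranges of the other models with no test. It lay above the range of 2208L in 8 members, within it in 14 and below it in 9, where 35.8% of all genes were above and 21.7% below. Against 2151R, 9 members were above, 15 within and 7 below (39.9% of all genes above and 30.8% below), and against 2225L, 9 were above, 10 within and 12 below (45.5% and 35.0%). Dhcr7 at -1.36, Srebf1 at -0.53 and Nr1h3 at -1.32 were the members in which T11 lay below all 3 models. Fasn at 0.33 was the member in which it lay above all 3. T11 read near 2151R in Acss2 and Abca1 and below it in Elovl6.

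Of 55 further genes of the pathways, 21 of the sterol, 26 of the fatty acid and 8 of the LXR branch, 9 were called higher and 17 lower when 2151R was set against 2208L (47.3% in all, beside 48.8% of all genes). Elovl4, an elongase of very long fatty acids (2.85, SE 0.54), and Soat1, which esterifies cholesterol (2.17, SE 0.20), were the farthest up, and Elovl7, an elongase (-5.35, SE 0.28), and Acat2, which joins acetyl-CoA for the mevalonate route (-2.42, SE 0.31), the farthest down. In 2225L against 2208L, 13 were higher and 10 lower (41.8% beside 32.9%), led by Thrsp, a lipogenic protein of unsettled mechanism (6.55, SE 1.80), and Elovl4 (5.08, SE 0.69), and by Lpin1, a phosphatidate phosphatase (-1.99, SE 0.27), and Mylip, an LXR target (-1.80, SE 0.31). The Thrsp call was lost without 2225L replicate 2. In 2225L against 2151R, 22 were higher and 10 lower (58.2% beside 48.6%), with Thrsp (5.80, SE 1.97) and Elovl7 (3.72, SE 0.40) the highest and Soat1 (-2.96, SE 0.28) the lowest, and Thrsp lost its call without either 2225L sample or 2151R replicate 4. In PBS against 3day nt, 7 were higher and 10 lower (30.9% beside 34.0%), among them Cyp51 (-1.28, SE 0.24), the lanosterol demethylase, and Erg28 (-1.02, SE 0.21), both of the sterol branch. The highest there were Acsl4 (1.06, SE 0.16) and Mbtps1 (0.55, SE 0.14), the protease that cleaves sterol regulatory element binding proteins. Cyp51 and Acsl4 were called in every fit that left out 1 library, while Erg28 was lost without 3day nt replicate 6 or 8 and Mbtps1 without any of 5 libraries. Of the sterol branch alone, 5 of 21 were lower and 3 higher in PBS, and of the fatty acid branch 5 of 26 were lower and 2 higher. The median differences of these 2 lists were -0.34 and -0.41, beside -0.047 over all genes. In PBS, 15 of the 21 and 19 of the 26 read lower. The opposite directions of the sterol and fatty acid members were thus not seen in the further genes.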

How the data were processed

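RNA of 15 mammary tumours was made into poly(A) libraries, per the labels' protocols. The submitters' processing notes name the build mm10 and the tools STAR and Salmon. Counting, annotation and normalization are not given in the sources used here. The values the authors deposited are log2 values of 17271 genes in 1 table, centred per gene on a level that is not the median of these 15 samples (1124 genes have a median of 0). The offset before the logarithm is not stated, and depth is unknown.

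The values were used as deposited. limma 3.58.1 (R 4.3.3, lmFit and eBayes) was run on all genes and was checked on simulated data. There was 1 fit of the 15 samples for the models, with 1 spread per gene shared by them, and 1 fit of 7 samples for PBS against 3day nt. A gene was called at a Benjamini-Hochberg adjusted p under 0.05 over all genes. The members and all lists were chosen with earlier results of these data known, so no test over a list was made. Values in every sample are given for 10 set members and for the 3 with the largest called difference in each direction of each comparison, and further pathway genes are named by the 2 largest. Pmvk, Mvd, Nsdhl and other members are given by count or difference. Promoters and gene positions are from RefSeq (GRCm38.p6). Alternatives covered scaling, the variance model, sample weights, filters, marker covariates, library prefix, choice of samples and leaving out each replicate.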

Additional observations from a re-analysis of the deposited data

Results flagged for a closer look

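In 99 groups of 4 or 8 samples, 8 had a sample far from the rest by Dixon's criterion, which chance passes in about 1 in 20 groups (4.95 of the 99). In 2151R, replicate 3 stood apart in Mvk (-0.013, others -0.51 to -0.47), Fdps (0.28, others -0.28 to -0.21) and Abca1 (0.11, others 0.88 to 1.03). This is the replicate with a skeletal muscle marker mean of 7.09. In 2208L, replicate 5 (PBS) stood apart among all 8 samples in Hsd17b7 (-1.01, others -0.40 to 0.014) and Stard4 (-1.25, others -0.26 to 0.37). Among the 4 PBS samples it stood apart in Hmgcs1 (-1.05, others -0.48 to -0.43), Hsd17b7 (-1.01, others -0.40 to -0.31) and Stard4 (-1.25, others -0.26 to -0.10). Replicate 5 also had the lowest median over all genes of any sample, -0.29.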

How the results depend on the processing

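No paired analysis was possible because sample names give no replicate numbers that groups share. Over the members and alternatives, 2295 gene values kept direction and side of the threshold, 178 lost the call, 64 gained one, 126 changed sign without a call in either fit, and 0 called differences changed sign. Members called higher and lower in 2151R against 2208L (4 and 10) became 8 higher with sample weights, 2 and 4 with a minimum difference of 1 log2 unit, and 5 lower with only samples titled NT, nt or PBS. The 5 and 6 of 2225L against 2208L became 3 and 2 with sample weights. The 5 and 4 of 2225L against 2151R became 3 higher without the 25% of genes with the lowest SD and 3 with the minimum difference, 10 higher with the adipocyte covariate, and 1 lower with sample weights. The 4 and 8 of PBS against 3day nt became 8 and 13 with sample weights, 0 and 5 with the minimum difference, and 0 and 0 with either marker covariate or without the 3 samples with high muscle markers. Over all genes those 3 fits called 76 higher and 30 lower, 86 and 38, and 76 and 22, beside 3007 and 2857 of the reported fit. The last leaves replicate 7 alone in 3day nt, which is then assumed to vary like PBS. Leaving out 1 replicate gave 3 to 4 higher and 6 to 11 lower in 2151R against 2208L, 3 to 5 and 3 to 7 in 2225L against 2208L, 4 to 7 and 2 to 6 in 2225L against 2151R, and 0 to 5 and 3 to 9 in PBS against 3day nt. The difference between group means of the per-sample fatty acid median (not the median of the gene differences) was -0.38 for 2225L against 2208L and -0.17 against 2151R, and became -0.12 and 0.17 with a mean in place of the median over the list. The cause was not tested. A fit of only the compared models, chosen after seeing the data, called 4 higher and 10 lower in 2151R against 2208L, and 4 higher and 5 lower in 2225L against 2208L. Depth is unknown and sets no limit that can be given.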
